A study of Mus musculus with 2 samples.

Results

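The chemokine ligands are read here by the cell that makes them, in 2 mouse glioblastomas. The members are all genes of the deposited feature tables whose symbol is Ccl, Cxcl, Xcl or Cx3cl followed by a number and at most 1 letter, in both libraries. These are 44 entries with 38 symbols, of 27998 mouse genes. 30 entries had at least 20 transcript tags in 1 cell class of 1 tumour and are described one by one, 3 had fewer (Ccl11, Ccl21a and Cxcl17), and 11 entries had no tag in any kept cell. Cxcl11 is not in the table used here. Together the members took 9.99 of every 10,000 tags in tumour 1 and 15.6 in tumour 2.

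Each library came from 1 tumour of a C57BL/6 mouse aged 3 months that carried the NPCTKO model. In this model, embryonic neocortical precursors received by in utero electroporation a piggyBac plasmid that carried Cas9, luciferase, a fluorescent label and guides against tumour suppressors, Trp53 and Nf1 included, so both tumours share these changes. The study names Tek-Cre;Ai14 and Tbx18 CreERT2/+;Ai14 hosts, with 1 tumour from each, and the host of each library is not given in the labels. Host, tumour and library therefore cannot be told apart. No brain without a tumour is in the series. The single-cell libraries were made with a 10x droplet kit that reads the 3′ end of transcripts and counts each captured molecule once by a unique molecular identifier, or UMI. All levels below are UMIs of a gene per 10,000 UMIs of mouse genes in a class of cells. A 3′ kit gives about 1 tag per captured transcript whatever its length, so levels were not divided by gene length. With 1 library per tumour, intervals are exact 95% Poisson intervals for levels and exact binomial (Clopper-Pearson) ones for shares of cells, and both cover counting error only.

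Cells were assigned to classes by fixed sets of marker genes other than chemokines. The classes held, in tumours 1 and 2, 10004 and 8027 glioma cells, 662 and 616 microglia, 95 and 306 macrophages, 12 and 631 monocytes, 26 and 59 dendritic cells, 263 and 624 T cells, 7 and 144 natural killer (NK) cells, 39 and 27 endothelial cells, and 252 and 137 oligodendrocytes. Neutrophils numbered 0 and 120, and mural cells 3 and 24. The summed level of each class's own markers was between 9.37 and 556 per 10,000. Macrophages also carried the monocyte markers, at 91.3 and 80.2 per 10,000, and microglia carried the macrophage markers, at 249 and 247, so these classes are not sharply bounded. Oligodendrocytes carried the glioma markers at 45.0 and 29.0, against 62.4 and 47.9 in glioma cells. Barcodes with no class (1063 and 4321, with median depths of 1741 and 2751 UMIs) and barcodes with markers of several compartments (417 and 438) entered no class. The libraries shared 51 barcodes, 42 of them among kept cells.

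Chemokines are small secreted proteins that bind G protein-coupled receptors and guide the movement of leukocytes. Cxcl9 and Cxcl10 act on CXCR3 of activated T cells and NK cells and are classic targets of interferon. Ccl2, Ccl7, Ccl8 and Ccl12 draw monocytes through CCR2 and related receptors, and Ccl3, Ccl4 and Ccl5 draw monocytes and T cells to inflamed tissue. Cxcl1 and Cxcl2 recruit neutrophils through CXCR2. In the brain, microglia, invading myeloid cells, astrocytes and vessel cells can all secrete chemokines, and the secreting cell sets where a gradient starts.

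Many chemokine genes lie side by side in the genome, in arrays that arose by duplication. Cxcl9 and Cxcl10 span 27.5 kb of chromosome 5 (GRCm38), and Cxcl5, Cxcl3, Cxcl15, Cxcl1 and Cxcl2 span 146.6 kb of the same chromosome. Ccl5, Ccl9, Ccl6, Ccl3 and Ccl4 span 138.9 kb of chromosome 11, and Ccl22, Cx3cl1 and Ccl17 span 66.4 kb of chromosome 8. The 250 bases upstream of the RefSeq transcription start (GRCm38.p6) are shown for 2 neighbouring pairs. The members of each pair differed in how their transcripts were spread over the classes. Capitals mark matches to GAAANNGAA, a core of interferon-response elements, and to GGNNTTTCC, a core of NF-kappaB sites. Both strands were searched.
Cxcl9, chr5:92328080-92328329, minus strand: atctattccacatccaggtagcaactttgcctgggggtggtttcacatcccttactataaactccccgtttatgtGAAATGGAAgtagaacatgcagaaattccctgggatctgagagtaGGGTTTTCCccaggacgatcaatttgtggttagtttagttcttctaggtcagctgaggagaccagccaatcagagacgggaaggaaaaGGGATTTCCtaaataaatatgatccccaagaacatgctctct
Cxcl10, chr5:92348890-92349139, minus strand: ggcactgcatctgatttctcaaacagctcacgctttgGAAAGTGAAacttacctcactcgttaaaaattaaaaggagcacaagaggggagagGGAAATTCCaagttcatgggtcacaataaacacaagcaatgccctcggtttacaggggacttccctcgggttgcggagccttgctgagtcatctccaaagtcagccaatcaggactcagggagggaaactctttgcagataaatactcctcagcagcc
Cxcl1, chr5:90890995-90891244, plus strand: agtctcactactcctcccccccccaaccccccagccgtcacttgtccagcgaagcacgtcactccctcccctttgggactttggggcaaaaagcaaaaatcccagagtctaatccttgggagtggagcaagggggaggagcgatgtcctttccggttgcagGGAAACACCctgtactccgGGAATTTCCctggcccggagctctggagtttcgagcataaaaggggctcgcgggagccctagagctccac
Cxcl2, chr5:90903649-90903898, plus strand: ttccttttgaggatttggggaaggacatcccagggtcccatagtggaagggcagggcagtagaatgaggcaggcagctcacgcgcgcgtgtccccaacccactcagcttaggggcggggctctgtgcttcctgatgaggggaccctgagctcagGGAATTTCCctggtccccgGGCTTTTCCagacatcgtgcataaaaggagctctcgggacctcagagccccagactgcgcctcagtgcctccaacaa

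A window was found for 23 of the 30 described symbols. GAAANNGAA matched 7.13% of all 32851 promoter windows, and among the described members those of Cxcl9, Cxcl10, Ccl1, Ccl3, Ccl19 and Cxcl14. GGNNTTTCC matched 4.93% of all windows and those of all 4 genes shown, Cxcl3, Ccl9 and Ccl20. TTCNNNGAA, the core bound by STAT factors, matched 7.02% of all windows and those of Ccl17 and Cxcl14. The interferon-response core began 175 bases before the start of Cxcl9 and 213 before that of Cxcl10, and neither Cxcl1 nor Cxcl2 held it. A match describes the letters only, and a missing match says no more than that these letters are not in the window.

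Every class with more than 20 cells contained chemokine transcripts, but the summed level of all members differed widely between classes. It was 66.2 and 49.7 per 10,000 in microglia of tumours 1 and 2, 82.2 and 49.0 in macrophages, 99.9 (12 cells) and 47.4 in monocytes, and 71.1 (7 cells) and 102 in NK cells. Glioma cells were at 4.36 and 8.68 and oligodendrocytes at 5.33 and 7.46, the lowest classes with at least 20 cells in both tumours. T cells were at 21.9 and 22.5, dendritic cells at 29.5 and 61.4, and endothelial cells at 14.3 and 42.0. In tumour 2 the 24 mural cells reached 99.4, second to the NK cells of that tumour, and the 120 neutrophils 70.1. Among the 7 classes that had 20 cells or more in both tumours, 18 of the 30 described members had the same highest class in both tumours, and 20 by the mean level of single cells. These were Ccl3, Ccl4, Ccl12, Ccl24 and Cxcl13 in microglia, Cxcl9 and Cxcl16 in macrophages, Ccl17 and Ccl22 in dendritic cells, Xcl1 and Ccl1 in T cells, Ccl19, Cxcl1, Cxcl12 and Cx3cl1 in endothelial cells, and Ccl25, Cxcl14 and Ccl28 in glioma cells. The rank of Ccl28 is not firm, since its glioma levels of 0.0042 and 0.00305 lie below the upper limits of several classes without a UMI. Those limits were 0.0112 and 0.0042 in T cells and 0.0467 and 0.0623 in endothelial cells.

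**Figure D1:**
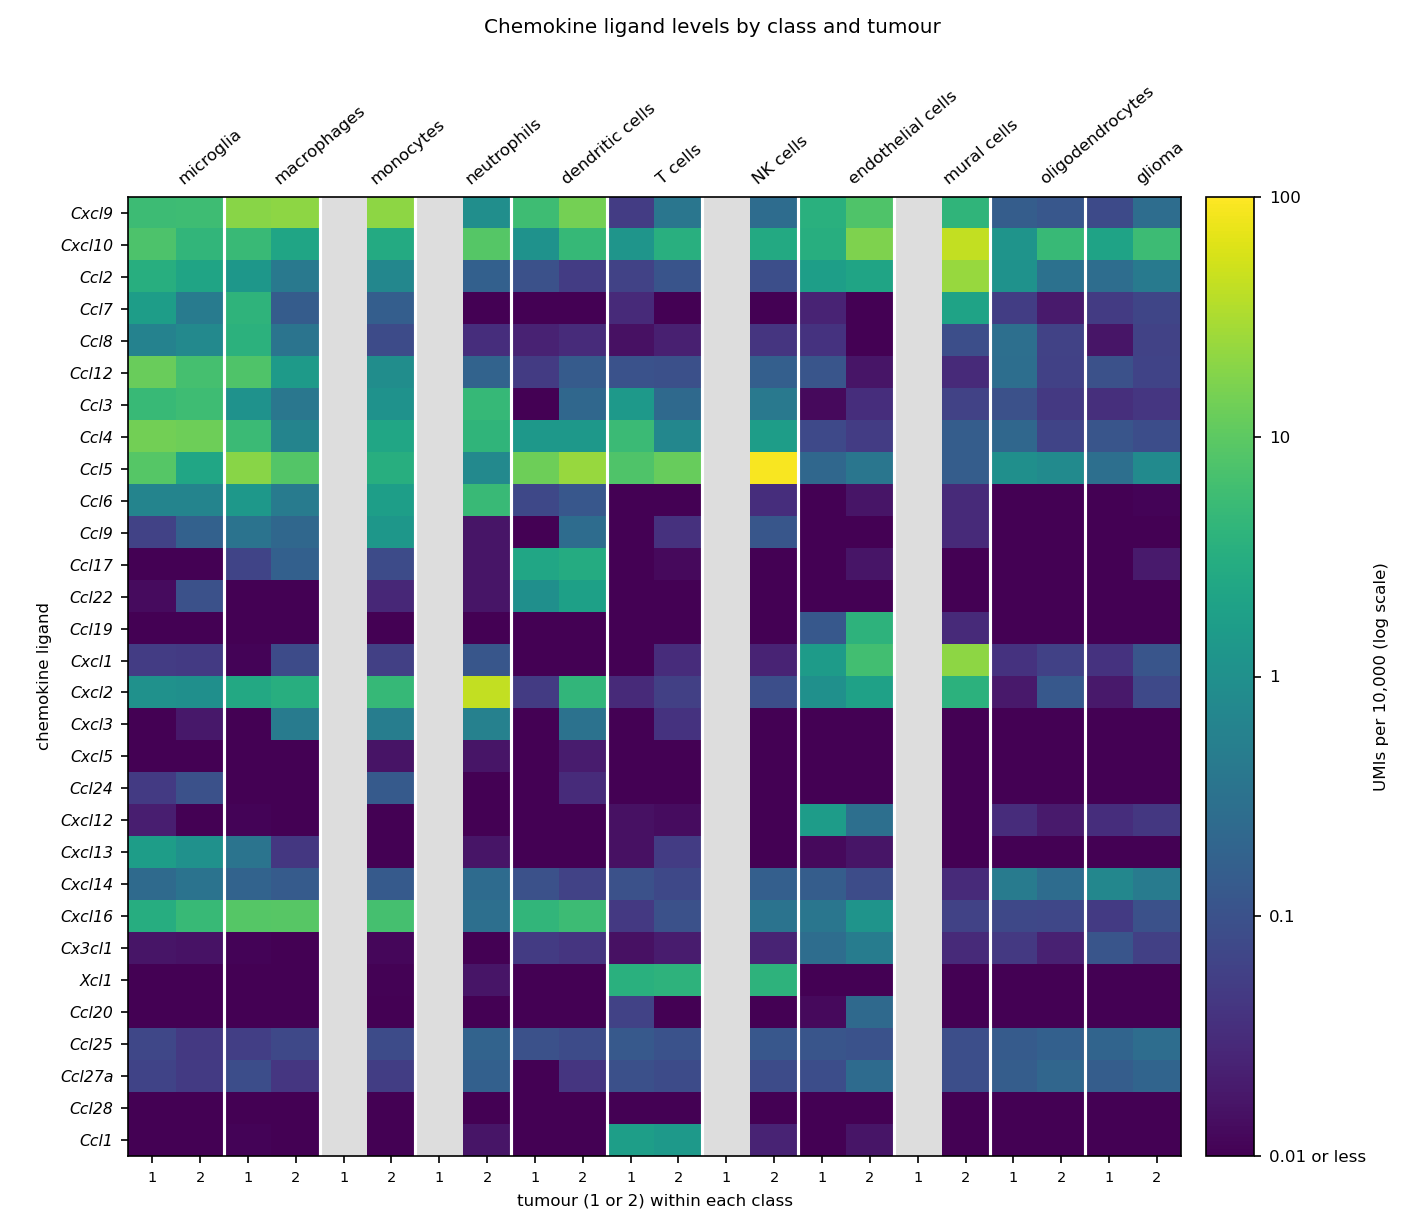
Level of each described chemokine ligand, in UMIs per 10,000 on a logarithmic colour scale, by class and tumour. Grey columns are classes with fewer than 20 cells in that tumour, and levels up to 0.01 share 1 colour. Ccl4 is bright in microglia (14.3 and 13.3), Ccl5 in NK cells of tumour 2 (91.6) and Cxcl2 in neutrophils (43.5).

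The CXCR3 ligands Cxcl9 and Cxcl10 were spread differently over the classes, although microglia and macrophages held both. Cxcl9 was held by myeloid cells. Its level was 19.8 (95% interval 18.9 to 20.8) and 20.8 (20.4 to 21.2) in macrophages, 28.4 (12 cells, 1 of which held 33.9% of it) and 20.6 in monocytes, 5.63 and 14.8 in dendritic cells, and 5.57 and 5.69 in microglia. Glioma cells were at 0.0798 and 0.270, T cells at 0.0515 and 0.368 and oligodendrocytes at 0.152 and 0.121. All myeloid classes named were above all 3 of the latter classes in both tumours. A Cxcl9 UMI was seen in 67.4% and 72.2% of macrophages, at median depths of 9546 and 13776.5 UMIs, and in 6.46% and 24.5% of T cells, which are not known to make it, at 9928 and 8357.5. After each cell was thinned to 2000 UMIs these shares were 55.1% and 58.4% of macrophages and 1.42% and 6.84% of T cells. In the test of summed counts, the log2 difference from the mean of the other classes was 4.70 ± 0.30 in macrophages (edgeR quasi-likelihood test, adjusted p = 5.45e-08), 3.16 ± 0.32 in dendritic cells (adjusted p = 1.02e-05, edgeR) and 2.60 ± 0.32 in microglia (adjusted p = 3.29e-05, edgeR), where ± is the standard error. Endothelial cells were at 3.45 and 8.05, but 1 cell of each tumour held 96.3% and 82.0% of these UMIs, and without it the levels were 0.146 and 1.80.

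Cxcl10 was spread over every class. Its level was 7.68 and 4.28 in microglia, 5.18 and 2.21 in macrophages, 3.21 and 16.7 in endothelial cells, and 2.06 (2.05 to 2.08) and 5.43 (5.40 to 5.47) in glioma cells. Because glioma cells were the most numerous, they held 64.5% and 70.5% of all Cxcl10 UMIs, although their level was below that of microglia in tumour 1 and above it in tumour 2. The highest level was in the mural cells of tumour 2, at 43.1, where 91.7% of 24 cells had a UMI, and without the single cell with most UMIs it was 36.0. T cells, not known as a main source, had a Cxcl10 UMI in 40.7% and 64.7% of cells, close to the 42.3% and 64.1% of glioma cells, so these shares of glioma cells cannot be read as shares of producing cells. At 2000 UMIs per cell the shares were 14.2% and 26.1% of T cells and 11.8% and 25.0% of glioma cells. In the test, Cxcl10 passed in microglia only among the 7 classes, with a log2 difference of 1.44 ± 0.50 (adjusted p = 0.0478, edgeR), and it did not pass without the tumour as a replicate block (log2 difference 0.97, adjusted p = 0.487), with DESeq2 (adjusted p = 0.0756), with its size factors in edgeR (0.0664) or in the fit of 9 classes described below (0.0751).

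**Figure D2:**
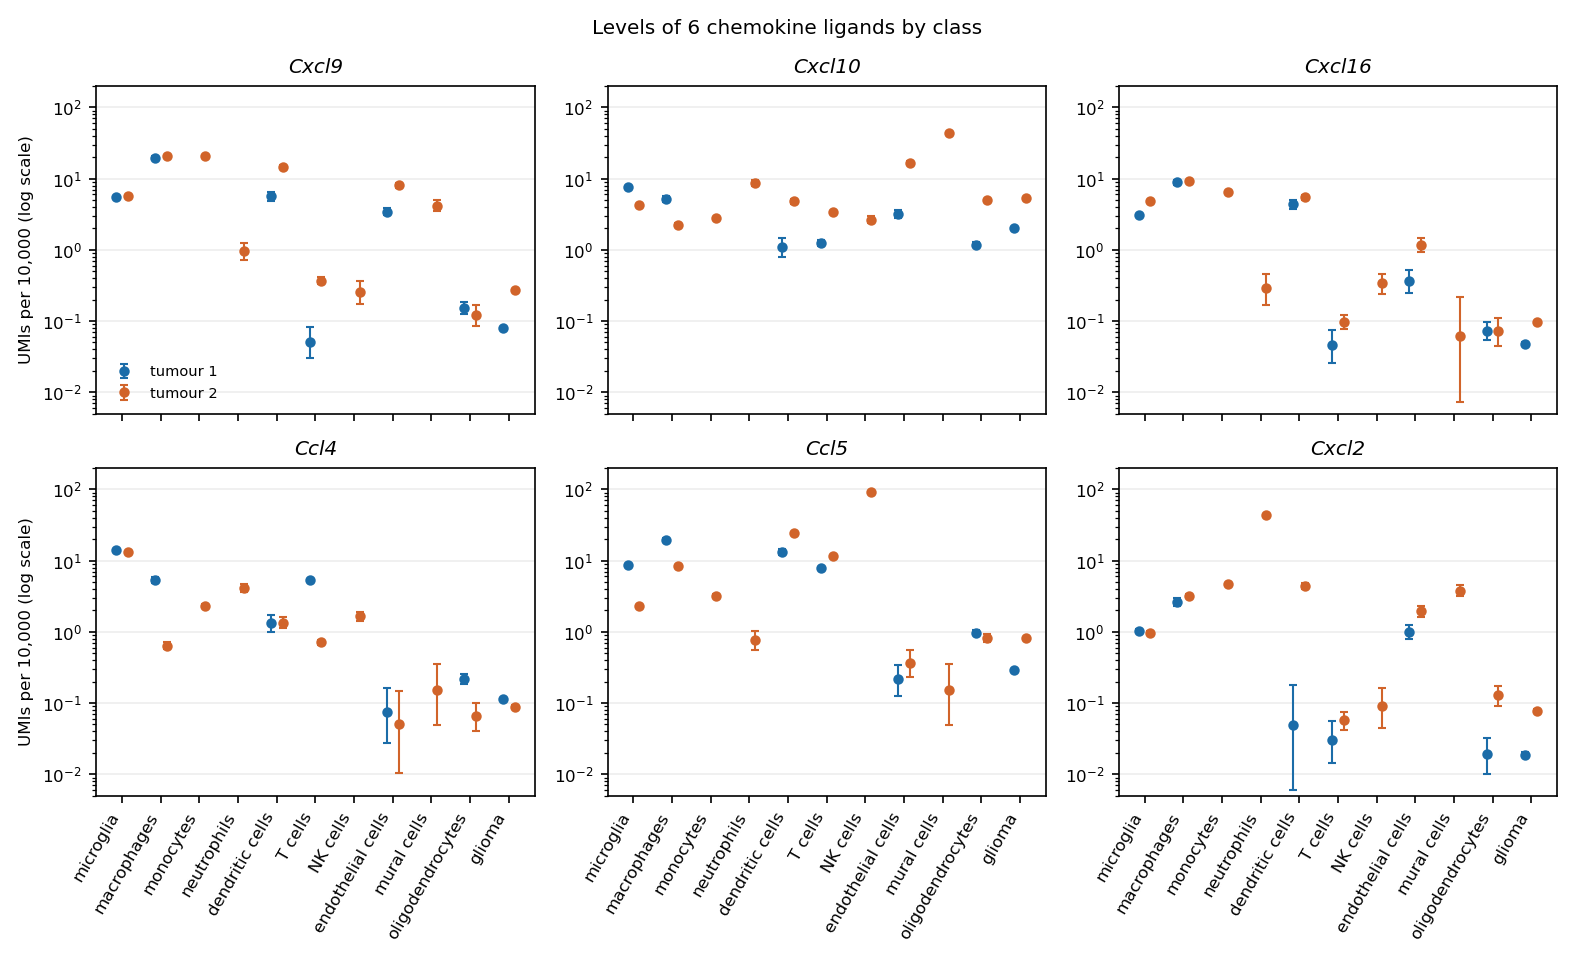
Levels of 6 chemokine ligands in UMIs per 10,000 (logarithmic axis) by class, with 1 point per tumour and exact 95% Poisson intervals, for classes of at least 20 cells. Cxcl9, Cxcl16 and Ccl4 are at 3.13 or more in microglia and at 0.27 or less in oligodendrocytes and glioma in both tumours, whereas Cxcl10 stays between 1.1 and 43.1 in every class shown.

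Within glioma cells, Cxcl10 was lower in the cells with a UMI of Gpr17, a receptor of oligodendrocyte precursors on their way to differentiation. It was at 1.63 and 3.14 in the 5307 and 3681 cells with Gpr17, and at 2.74 and 8.67 in the 4697 and 4346 cells without. The cells with Gpr17 were the deeper ones, with medians of 21977 and 22827 UMIs against 17863 and 13654.5. The shares of cells with a Cxcl10 UMI were alike, at 43.2% and 63.5% with Gpr17 and 41.3% and 64.6% without. These subsets were formed after the class levels had been seen and were not tested.

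By level, the monocyte-attracting ligands were high in microglia, in macrophages of tumour 1 and, for Ccl2 and Ccl7, in mural cells of tumour 2. Ccl12 was at 12.2 (12 to 12.4) and 6.58 (6.46 to 6.71) in microglia, at 7.88 and 1.5 in macrophages and at 2.04 and 0.903 in monocytes. It was 0.1 and 0.0934 in T cells. A UMI was present in 90.8% and 81.5% of microglia, and in 11.4% and 11.1% of T cells, at the depths given above for T cells and at 19232.5 and 26047 UMIs for microglia. At 2000 UMIs per cell these were 62.0% and 45.0% of microglia and 2.47% and 3.01% of T cells. Ccl2 was at 3.25 and 2.15 in microglia, 1.32 and 0.415 in macrophages, and 7.13 (12 cells) and 0.714 in monocytes. The mural cells of tumour 2 had the highest Ccl2 level, at 24.0 (22.4 to 25.7), with a UMI in 75.0% of 24 cells, and 16.2 without the cell with most. Endothelial Ccl2 was at 1.75 and 2.18, of which 1 cell held 88.4% and 85.3%. Ccl7 was at 1.69 and 0.454 in microglia and 4.04 and 0.147 in macrophages. Mural cells of tumour 2 held Ccl7 at 2.07 (7 of 24 cells with a UMI), and at 1.08 without the cell with most. Ccl8 was at 0.596 and 0.770 in microglia and 3.71 and 0.351 in macrophages. In microglia the log2 difference was 6.01 ± 0.30 for Ccl12 (adjusted p = 4.24e-09, edgeR), 3.24 ± 0.33 for Ccl2 (adjusted p = 4.47e-06, edgeR) and 3.64 ± 0.62 for Ccl8 (adjusted p = 5.53e-04, edgeR). Ccl7 passed as well (adjusted p = 2.55e-05, edgeR), and its fold is not given because dendritic and endothelial cells had at most 2 UMIs in either tumour. Over all kept cells, the numerous glioma cells held the largest share of Ccl2 UMIs, 34.8% and 41.1%, against 24.8% and 19.8% in microglia, at levels of 0.269 and 0.430. They also held 18.8% and 33.2% of Ccl7, at levels of 0.0504 and 0.0685.

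Ccl3 and Ccl4, inflammatory chemokines whose genes are neighbours on chromosome 11, were led by microglia. Ccl4 was at 14.3 (14.1 to 14.5) and 13.3 (13.1 to 13.5) in microglia, and Ccl3 at 5.04 and 5.66. Microglia held 60.5% and 69.7% of all Ccl4 UMIs. The log2 difference was 5.53 ± 0.40 for Ccl4 (adjusted p = 1.34e-07, edgeR) and 5.82 ± 0.42 for Ccl3 (adjusted p = 1.29e-07, edgeR). Within microglia, a Ccl4 UMI was present in 91.9% and 83.1% of the cells with Ccl3, and in 63.1% and 34.6% of those without, and the cells with Ccl3 had median depths of 18750 and 27450 UMIs against 20227 and 23756. The neutrophils of tumour 2 held Ccl3 at 4.81 and Ccl4 at 4.17. T cells carried both genes in tumour 1, with Ccl4 at 5.36 and Ccl3 at 1.39, and far less in tumour 2, at 0.713 and 0.236. Both passed in T cells over both tumours, with log2 differences of 2.09 ± 0.45 for Ccl4 (adjusted p = 3.20e-03, edgeR) and 2.07 ± 0.51 for Ccl3 (adjusted p = 7.65e-03, edgeR).

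Ccl5, a chemokine known from cytotoxic lymphocytes, was the leading chemokine of lymphocytes. NK cells held it at 43.0 (7 cells) and 91.6 (89.9 to 93.3), where it made up 60.5% and 90.0% of their chemokine UMIs. T cells were at 7.88 and 11.6. Macrophages were at 19.8 and 8.44, monocytes at 26.8 and 3.23 and microglia at 8.80 and 2.32, all lower in tumour 2. Endothelial cells were at 0.215 and 0.371. A Ccl5 UMI was present in 57.8% and 61.7% of T cells (37.7% and 38.8% at 2000 UMIs) and in 10.3% and 48.1% of endothelial cells (3.49% and 11.6%), whose median depths were 14393 and 12278. The log2 difference was 2.09 ± 0.40 in T cells (adjusted p = 1.40e-03, edgeR), 2.96 ± 0.39 in macrophages (adjusted p = 8.51e-05, edgeR) and -3.26 ± 0.60 in glioma cells (adjusted p = 6.19e-04, edgeR). In the fit of 9 classes, where NK cells are among the others, Ccl5 in T cells was at 1.22 and did not pass (adjusted p = 0.0569, edgeR). Ccl6, a myeloid chemokine of rodents, was at 5.08 in the neutrophils of tumour 2, 1.13 and 1.74 in monocytes, 1.38 and 0.467 in macrophages and 0.637 and 0.633 in microglia. Its relative Ccl9 was highest in monocytes, at 2.72 (12 cells) and 1.29.

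Among the CXCR2 ligands, the level of Cxcl2 was highest in neutrophils and that of Cxcl1 in vessel cells. Cxcl2 was at 43.5 (41.8 to 45.2) in the neutrophils of tumour 2, with a UMI in 89.2% of cells at a median depth of 3987, against 7.21% of T cells in that tumour (82.1% and 1.41% at 2000 UMIs). It was at 2.26 and 4.76 in monocytes, 2.62 and 3.21 in macrophages, and 1.04 and 0.971 in microglia. Neutrophils thus exceeded every other class of tumour 2 in Cxcl2. Cxcl1, from the gene next to it, was at 20.8 (19.3 to 22.4) in the mural cells of tumour 2, with a UMI in 87.5% of cells at a median depth of 11775, and at 1.59 and 6.11 in endothelial cells, where 1 cell held 44.4% and 59.9% of the UMIs. In microglia Cxcl1 was at 0.0514 and 0.0478, with a UMI in 2.72% and 3.90% of cells, and in macrophages at 0.0110 and 0.0806. By number of UMIs the order was another one: glioma cells, at Cxcl1 levels of 0.0384 and 0.114, held 52.0% and 38.2% of all Cxcl1 UMIs, against 7.4% and 7.0% in endothelial cells and 13.2% in the mural cells of tumour 2. Of the Cxcl2 UMIs, microglia held 41.5% in tumour 1, and in tumour 2 monocytes held 22.8% and neutrophils 14.4%. The printed windows of both genes hold GGNNTTTCC, each in 2 places. Cxcl3 was seen in monocytes at 0.679 (6 UMIs, all in 1 cell) and 0.498 and in neutrophils at 0.576, and Cxcl5 did not exceed 0.0205, seen in the dendritic cells of tumour 2, in any class. Genes that tissue digestion is known to induce moved with some of these values: their summed level was 95 and 63.5 in endothelial cells and 72.3 in the mural cells and 42.4 in the neutrophils of tumour 2, against 27.7 and 15.5 in microglia and 38.5 and 36.0 in glioma cells. Their part in the levels of Cxcl1, Cxcl2 and Ccl2 was not tested.

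The CCR4 ligands Ccl17 and Ccl22, which draw regulatory and other T cells, had their highest levels in dendritic cells. Ccl17 was at 2.35 (1.90 to 2.87) and 2.92 (2.59 to 3.28) there, with a UMI in 42.3% and 39.0% of cells, and at 0.00429 and 0.0196 in glioma cells, with a UMI in 0.620% and 3.58% of cells, at median depths of 15135.5 and 14586 UMIs for dendritic and 19740.5 and 17878 for glioma cells. Ccl22 was at 0.979 and 1.89 in dendritic cells, with a UMI in 23.1% and 40.7% of cells, and at 0.0132 and 0.0991 in microglia, with 1.66% and 11.5%. At 2000 UMIs per cell, Ccl17 was seen in 20.2% and 20.1% of dendritic cells and 0.0681% and 0.425% of glioma cells, and Ccl22 in 14.6% and 22.2% of dendritic cells. Both passed in dendritic cells (edgeR, adjusted p = 1.87e-09 for Ccl17 and 1.03e-07 for Ccl22). 1 cell of tumour 1 held 54.2% of the Ccl17 UMIs of its 26 dendritic cells. By number of UMIs, glioma cells held 39.3% and 29.8% of Ccl17, against 38.1% and 24.9% in dendritic cells. Of Ccl22, glioma cells held 41.2% and 8.17%, microglia 9.28% and 29.5%, and dendritic cells 20.6% and 32.9%. The glioma level of Ccl22 was only 0.00347 and 0.00265, with a UMI in 0.750% and 0.511% of cells. Oligodendrocytes were at 0.00439 and 0, and T cells at 0 and 0.00342. Ccl19, the CCR7 ligand that gathers dendritic cells and naive T cells, was seen mainly in endothelial cells, at 0.127 and 3.82. In tumour 2, 1 of 27 endothelial cells held 81.4% of it, and the level without that cell was 0.877.

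Cxcl16, a membrane-bound ligand of CXCR6, was carried by nearly every myeloid cell other than neutrophils. Its level was 8.87 (8.27 to 9.51) and 9.18 (8.89 to 9.47) in macrophages, 6.68 and 6.53 in monocytes, 4.36 and 5.48 in dendritic cells and 3.13 and 4.89 in microglia. T cells were at 0.0455 and 0.0968. A Cxcl16 UMI was present in 91.6% and 91.5% of macrophages and 95.2% and 95.3% of microglia, against 4.56% and 11.7% of T cells, and at 2000 UMIs per cell in 75.7% and 73.7%, 43.7% and 56.2%, and 1.16% and 2.78%. The log2 difference was 4.82 ± 0.18 in macrophages (adjusted p = 7.58e-10, edgeR), 3.60 ± 0.20 in dendritic cells (adjusted p = 2.68e-08, edgeR) and 3.43 ± 0.19 in microglia (adjusted p = 8.32e-09, edgeR). Cxcl13, the ligand that organises B-cell follicles, was largely a microglial transcript, at 1.66 and 1.07, with a UMI in 20.7% and 15.4% of microglia and 1.95% and 1.25% of glioma cells (9.26%, 5.19%, 0.257% and 0.202% at 2000 UMIs). Ccl24, an eosinophil attractant, was at 0.0477 and 0.0979 in microglia and at 0.137 in the monocytes of tumour 2.

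Lymphocytes had chemokines of their own. Xcl1, which draws XCR1+ dendritic cells, was at 3.48 (3.28 to 3.68) and 3.89 (3.76 to 4.02) in T cells and at 25.0 (7 cells) and 3.85 in NK cells. It was present in 35.4% and 28.5% of T cells and in 0.820% and 1.28% of glioma cells, or 22.5%, 15.6%, 0.0913% and 0.209% at 2000 UMIs. Ccl1, a CCR8 ligand, was at 1.77 and 1.42 in T cells, with a UMI in 21.3% and 12% of cells and in 0.3% and 0.548% of glioma cells.

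By level, endothelial cells led for Cxcl12, the CXCR4 ligand that retains leukocytes and progenitors, at 1.61 (1.34 to 1.91) and 0.287 (0.167 to 0.460). They also led for Cx3cl1, the ligand of the microglial receptor CX3CR1, at 0.266 and 0.473. By number of UMIs, glioma cells held 57.8% and 62.6% of Cxcl12, at levels of 0.0332 and 0.0446, against 9.56% and 1.37% in endothelial cells. Of the Cx3cl1 UMIs, glioma cells held 90.2% and 70.7%, and endothelial cells of tumour 2 held 2.01%. Cxcl12 passed in endothelial cells (adjusted p = 8.12e-07, edgeR), as did Cx3cl1, with a log2 difference of 3.61 ± 0.37 (adjusted p = 5.50e-06, edgeR). A Cxcl12 UMI was present in 51.3% and 22.2% of endothelial cells and in 2.11% and 2.11% of microglia, or 30.4%, 4.79%, 0.255% and 0.138% at 2000 UMIs. Glioma cells led for Cxcl14, an epithelial and neural chemokine with a debated receptor, at 0.701 (0.690 to 0.712) and 0.463 (0.453 to 0.473). It was at 0.458 and 0.259 in oligodendrocytes, 0.241 and 0.337 in microglia and 0.0970 and 0.0740 in T cells. Ccl25, the CCR9 ligand, was at 0.195 and 0.272 in glioma cells and 0.142 and 0.167 in oligodendrocytes, and Ccl27a, a skin chemokine, at 0.153 and 0.194 and 0.151 and 0.210. In glioma cells the log2 difference was 1.44 ± 0.21 for Cxcl14 (adjusted p = 9e-05, edgeR), 0.87 ± 0.23 for Ccl25 (adjusted p = 7.20e-03, edgeR) and 0.83 ± 0.31 for Cx3cl1 (adjusted p = 0.0421, edgeR). The call of Cx3cl1 in glioma cells was lost under 5 alternatives, with an adjusted p of 0.104 without the tumour as a block, 0.0742 with DESeq2, 0.0531 with its size factors in edgeR, 0.0524 with a 10% mitochondrial limit and 0.1 without the 10% of cells with most UMIs. Ccl27a has further copies in the genome, 3 entries in all, of which 1 held every UMI. Cell Ranger leaves out reads that match several genes, so its level is uncertain, as are those of Ccl19 and Ccl21a. Ccl28 had 97 and 53 UMIs in glioma cells, and Ccl20 had 20 UMIs in 1 T cell of tumour 1 and 14 in 1 endothelial cell of tumour 2.

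Glioma cells with a summed astrocyte marker level of at least 20 per 10,000 (804 and 231 cells) held Cxcl14 at 2.31 (2.25 to 2.39) and 1.57 (1.45 to 1.69), against 0.563 and 0.434 in the remaining 9200 and 7796. A Cxcl14 UMI was present in 78.6% and 68.4% of the former and 52.2% and 35.3% of the latter, although the former were shallower, with medians of 16317.5 and 15673 UMIs against 19969.5 and 17925. This split was also made after the class levels had been seen and was not tested.

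The question of which class holds more of the family than the others was put to a fit of counts summed per tumour and class, with the tumour as a block and Benjamini-Hochberg adjustment over all 13390 genes tested. The fit held these 7 classes, and 28 members passed its filter on low counts. The 16 that did not pass are not counted below. Since the filter keeps a gene that is high in a single class, the counts are read only beside the share of all genes called. In microglia 17 of 28 members were higher than in the mean of the other classes, where 17.4% of all genes were, and 1 (Ccl17) was lower, against 8.77%. The median log2 difference of the members was 2.53 there and that of all genes 0.06. Besides Cxcl10, whose limits are given above, microglial Ccl5 did not pass in the fit of 9 classes (log2 difference 0.56, adjusted p = 0.501, edgeR). Without the replicate block, Ccl5, Cxcl2 and Ccl17 did not pass in microglia (adjusted p = 0.0761, 0.165 and 0.161, edgeR). The lower call of Ccl17 was lost with stricter gates as well. In macrophages 14 were higher (13.2% of all genes) and 1, Cx3cl1, was lower (4.56%), with medians of 1.95 and -0.04. Cxcl3, Cxcl13 and Ccl17, with Ccl6, Ccl7 and Ccl9, are among these 14 besides the genes given above. The macrophage call of Cxcl3 rests on tumour 2, since the macrophages of tumour 1 had no Cxcl3 UMI. Macrophage Ccl17 was 6 UMIs in 1 cell in tumour 1, and 1 cell held 85.9% of it in tumour 2. Of the 31 and 19 macrophage Cxcl13 UMIs, 1 cell held 67.7% and 57.9%. The Cxcl13 call was lost with stricter gates (adjusted p = 0.0943, edgeR).

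In dendritic cells 8 members were higher (9.56% of all genes): Cxcl3, Cxcl2, Cxcl9, Ccl22, Ccl17, Cxcl16, Ccl5 and Ccl9. Cxcl1 and Ccl2 were lower (5.34%), and both calls were lost with stricter gates (adjusted p = 0.0682 and 0.139, edgeR) and without the 10% of cells with most UMIs (0.0725 and 0.0877). Cxcl1 was lost without the replicate block as well (0.176). The calls of Cxcl2, Cxcl3 and Ccl9 rest on tumour 2, since with tumour 1 alone all 3 changed sign, Cxcl2 to a log2 difference of -1.77, and 1 cell of tumour 2 held 68.5% of the dendritic Cxcl2 UMIs. The stricter gates gave -0.94 for Cxcl2 (adjusted p = 0.389, edgeR). In T cells 5 members were higher (16.9%), the Xcl1, Ccl1, Ccl5, Ccl3 and Ccl4 named above, and 7 were lower (13.3%): Cxcl2, Cxcl9, Cxcl16, Ccl2, Ccl12, Ccl6 and Cxcl14. In endothelial cells 8 were higher (14.7%): Ccl20, Ccl19, Cxcl1, Cxcl2, Cxcl9, Cxcl12, Cx3cl1 and Ccl2. The 4 lower ones (8.44%) were Ccl12, Ccl5, Ccl3 and Ccl4. Without the 10% of cells with most UMIs in each class, 4 remained called, Ccl19, Cxcl1, Cxcl12 and Cx3cl1, whereas Cxcl9 turned to -0.93 (adjusted p = 0.226, edgeR) and Ccl2 to -1.03 (adjusted p = 0.324, edgeR).

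Glioma cells were the other extreme. 3 of 28 members were higher there (Cxcl14, Ccl25 and Cx3cl1), where 28.7% of all genes were, and 8 were lower (16.9%): Cxcl2, Cxcl9, Cxcl16, Ccl12, Ccl5, Ccl6, Ccl3 and Ccl4. Their log2 differences reached -4.39 ± 0.53 for Cxcl9 (adjusted p = 2.05e-05, edgeR) and -4.22 ± 0.31 for Cxcl16 (adjusted p = 5.64e-07, edgeR), and the medians were -1.50 over members and 0.19 over all genes. Oligodendrocytes resembled them in direction, with 1 member higher (Cxcl14, log2 difference 0.70 ± 0.23, adjusted p = 0.0246, edgeR), against 26.4% of all genes, and 9 lower (15.5%). The Cxcl14 call in oligodendrocytes was lost without the replicate block (adjusted p = 0.0784). With stricter gates, the lower calls of Ccl3 (adjusted p = 0.0524, edgeR) and Ccl6 in glioma cells were lost. So were those of Ccl3 (0.117), Ccl6 and Ccl17 in oligodendrocytes and that of Ccl6 in T cells.

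Monocytes and NK cells had only 12 and 7 cells in tumour 1, and were tested in a second fit with at least 5 cells per class and tumour, 9 classes and 13354 genes, which was added after the cell numbers had been seen. In monocytes 13 members were higher (11.2% of all genes): Cxcl2, Cxcl3, Cxcl9, Cxcl16, Ccl2, Ccl3, Ccl4, Ccl6, Ccl7, Ccl9, Ccl12, Ccl17 and Ccl24. For lower members in monocytes edgeR called 0 (1.96%), with 1 at an unadjusted p under 0.05 and 0 by DESeq2. Ccl17 and Ccl24 in monocytes rest on tumour 2 and changed sign with tumour 1 alone. In NK cells 2 were higher (4.57%), Xcl1 and Ccl5, the latter with a log2 difference of 4.14 ± 0.41 (adjusted p = 3.66e-07, edgeR), and 2 lower (1.74%), Cxcl9 and Cxcl16. Set directly against monocytes, microglia were higher in 5 members (3.77%), Cxcl13, Ccl12, Ccl8, Ccl3 and Ccl4, with log2 differences of 3.00 ± 0.47 for Ccl12 (adjusted p = 2.60e-04, edgeR) and 2.25 ± 0.63 for Ccl4 (adjusted p = 0.0302, edgeR). They were lower in 4 (3.86%), Cxcl3, Ccl17, Ccl9 and Cxcl9, the last at -1.74 ± 0.48 (adjusted p = 0.0300, edgeR). With tumour 1 alone, Ccl17 changed sign. Without the replicate block, 3 of these 9 calls were made. T cells exceeded NK cells in 1 member, Ccl1 (0.704%). For members lower in T cells than in NK cells the count was 0 (0.831%), with 3 at an unadjusted p under 0.05 and 0 by DESeq2.

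**Figure D3:**
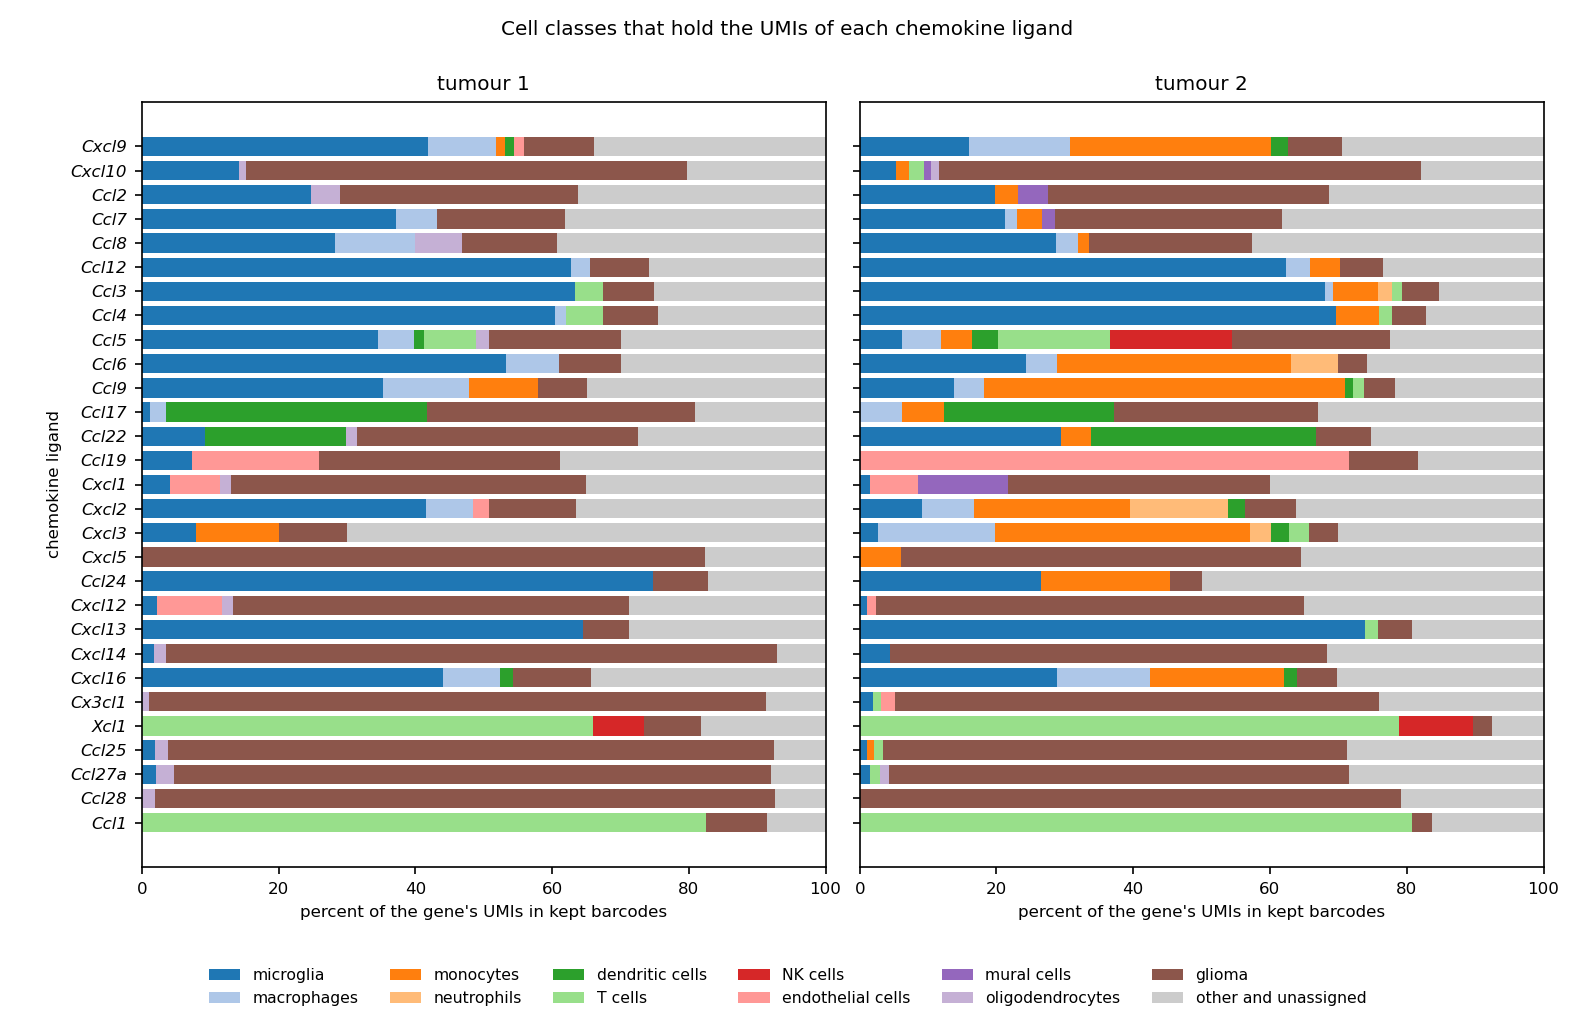
Share of each chemokine ligand's UMIs held by each class, in percent of the gene's UMIs in kept barcodes, for both tumours. Grey holds barcodes without a class, barcodes with markers of several compartments and classes under 1% of the gene; glioma cells take 64.5% and 70.5% of Cxcl10, and microglia 60.5% and 69.7% of Ccl4.

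Dendritic cells divided further by their chemokines. The cells with at least 2 UMIs of Cacnb3, Il4i1 and Nudt17, genes of mature dendritic cells (6 and 25 cells), held Ccl5 at 117 (107 to 128) and 77.5 (74.4 to 80.6), with a UMI in 6 of 6 and 21 of 25 cells. The cells with Clec9a or Wdfy4, markers of cross-presenting dendritic cells (20 and 32 cells), held it at 0.494 and 0.169. 1 cell of the mature subset held 45.3% and 67.1% of its Ccl5 UMIs. Summed T-cell markers were at 0 and 0.0984 per 10,000 in that subset and NK markers at 0 and 0.164, far under the 27.6 and 21.9 of T cells and the 59.5 and 72.6 of NK cells. Ccr7 and Fscn1, which mature dendritic cells express, were at 23.2 and 29.6 and at 16.4 and 16.3. Ccl22 went the same way, at 9.0 and 5.44 in the mature subset and at 0 and 0.215 in the Clec9a or Wdfy4 cells. Cxcl16 was at 11.9 and 8.0 against 3.43 and 4.09. Cxcl9 did not divide them in the same way in both tumours, at 12.6 and 14.6 against 4.78 and 15.5, and the macrophage markers of the Clec9a or Wdfy4 cells were at 1.48 and 16.1.

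T cells with Cd8a and no Cd4 (204 and 241 cells) held Xcl1 at 3.92 and 6.75, Ccl5 at 8.51 and 11.4 and Ccl4 at 5.38 and 0.702. T cells with Cd4 and neither Cd8a nor Foxp3 (28 and 111 cells) held Xcl1 at 1.44 and 0.737 and Ccl5 at 5.76 and 1.10. In tumour 1, 1 of the 28 held 68.6% of that Ccl5. The cell with most Ccl4 held 71.2% of the Ccl4 of this subset, so the subset's Ccl4 level of 13.3 rests largely on 1 cell. Whether both are the same cell was not examined. Ccl1 was at 10.4 and 2.86 in Cd4 cells, of which 1 cell held 58.3% and 46.2%, and at 1.06 and 1.31 in Cd8a cells. In cells with Foxp3, the factor of regulatory T cells (12 and 37 cells), Ccl5 was at 4.09 and 0.527 and no Ccl1 UMI was seen. All these subsets were formed after the class levels had been seen and were not tested.

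**Figure D4:**
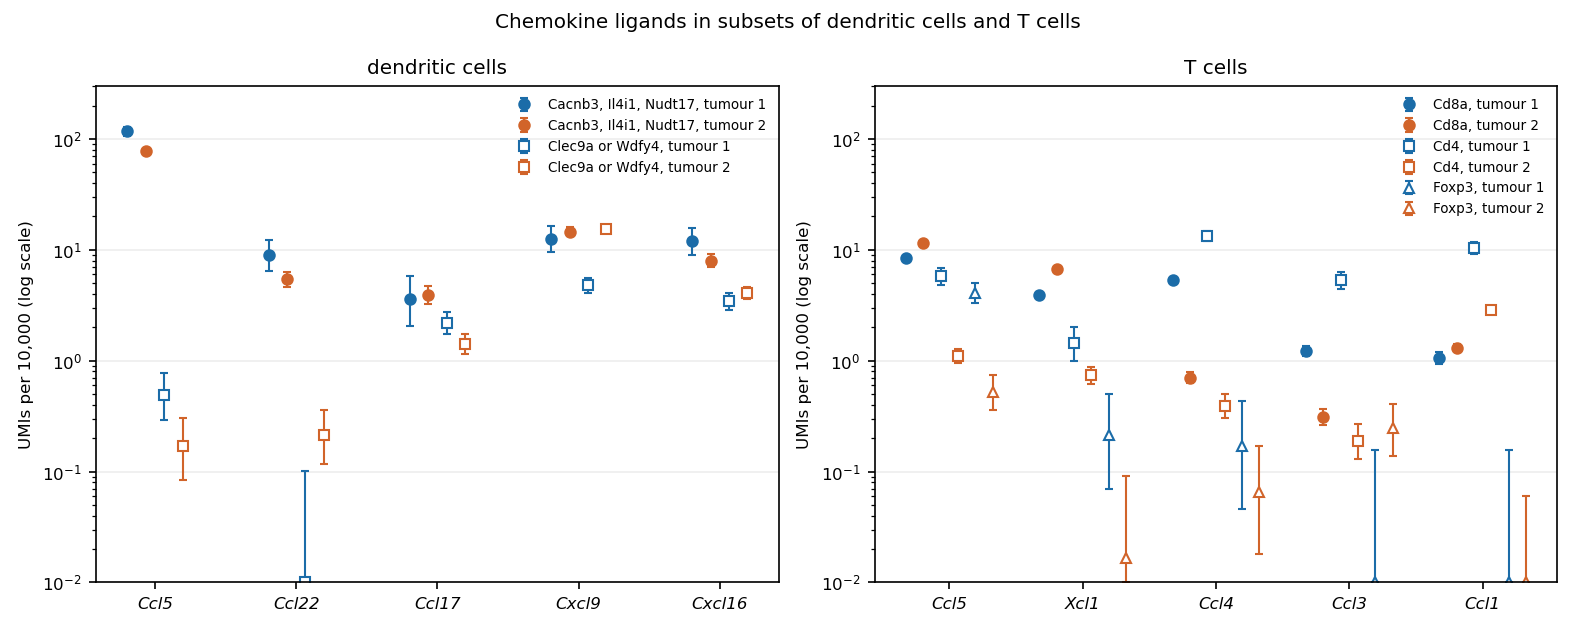
Levels of 5 chemokine ligands in subsets of dendritic cells (left) and T cells (right), in UMIs per 10,000 on a logarithmic axis with exact 95% Poisson intervals, by tumour; marks on the lower edge are levels of 0. Ccl5 is at 117 and 77.5 in dendritic cells with Cacnb3, Il4i1 and Nudt17 and below 1 in those with Clec9a or Wdfy4.

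Between the tumours only 1 library stands on each side, so levels are set side by side without a test, and a member is counted when it had at least 20 UMIs and differed at least 2-fold. In glioma cells 13 of 29 members were higher in tumour 2, against 8.69% of all genes, and 1 (Cx3cl1) was higher in tumour 1, against 25.5%. The ratio of tumour 2 to tumour 1 was 2.63 (2.60 to 2.66) for Cxcl10, 2.85 (2.77 to 2.94) for Ccl5, 3.38 (3.20 to 3.57) for Cxcl9 and 4.10 (3.68 to 4.58) for Cxcl2. Ccl5, Cxcl9 and Cxcl2 are genes called lower in glioma cells than in the mean of the other classes. Not every class was above glioma cells: endothelial Ccl5 was at 0.215 and 0.371, against 0.29 and 0.829 in glioma cells. The share of T cells with a Cxcl9 UMI was also higher in tumour 2, at 24.5% against 6.46%. The summed level of genes known to respond to interferon gamma was higher there too, at 39.4 against 19.4 per 10,000 in glioma cells and at 58.8 against 35.3 in oligodendrocytes. The part of free RNA and of interferon in these ratios was not tested.

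In macrophages more members were higher in tumour 1: 11 of 20 members were higher in tumour 1 (15.6% of all genes) and 3 in tumour 2 (9.34%). The largest ratios were those of Ccl7, 27.5-fold higher in tumour 1, Ccl8, 10.6-fold, and Ccl4, 8.26-fold, with 366, 336 and 481 UMIs in tumour 1. Cxcl9 and Cxcl16 differed little there, with ratios of 1.05 (0.997 to 1.10) and 1.03 (0.959 to 1.12) for tumour 2 over tumour 1. The summed level of dissociation genes moved with this, at 39.8 and 17.3 in macrophages, as did that of the macrophage markers, at 180 and 114, and the part of either was not tested. In microglia 3 of 23 members were higher in tumour 1 (19.5%), Ccl5, Ccl7 and Cxcl12, and 4 in tumour 2 (5.67%), Cxcl3, Ccl24, Ccl22 and Ccl9. In T cells 7 of 21 were higher in tumour 2 (7.96%), Cxcl9, Cxcl10 and Cxcl16 among them, and 3 in tumour 1 (13.5%), Ccl3, Ccl4 and Ccl20. 1 T cell of tumour 2 held 35.0% of the Cxcl10 UMIs of its class. Without the cell with most, the Cxcl10 level of T cells was 2.21 in tumour 2, less than 2-fold above the 1.24 of all T cells of tumour 1, and 1.07 in tumour 1 without its own such cell.

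**Figure D5:**
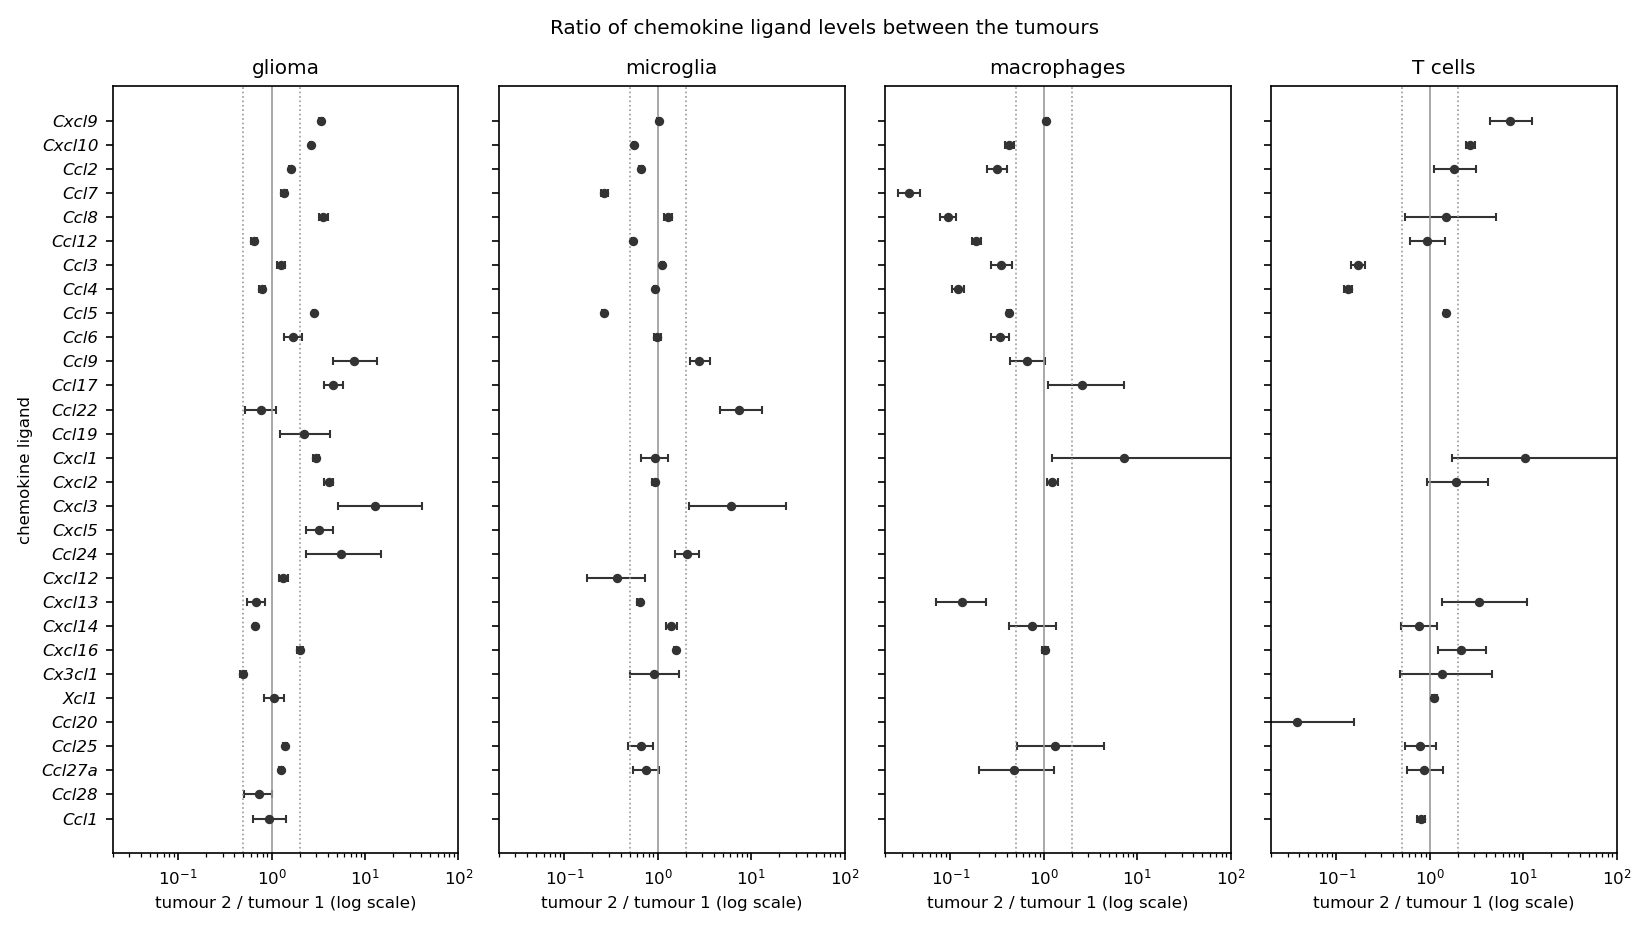
Ratio of the level of each chemokine ligand in tumour 2 to that in tumour 1 (logarithmic axis) in 4 classes, with exact 95% intervals for counting error; the solid line marks a ratio of 1 and the dotted lines a 2-fold difference. Points of glioma cells lie mostly to the right of the solid line and those of macrophages mostly to the left, with Ccl7 in macrophages at 0.0364.

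Of 23 chemokine receptors listed, 15 were tested. Ackr3 and Ackr1, scavenging receptors of chemokines, were the 2 higher in endothelial cells than in the mean of the other classes (14.7% of all genes), and 5 were lower in glioma cells (16.9%), Cxcr4, Ccrl2, Cx3cr1, Ccr2 and Ccr7 (edgeR, threshold 0.05).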

How the data were processed

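Per the labels and the study's methods, the authors aligned the reads with Cell Ranger 4.0.0 to mm10 and deposited raw UMI counts per gene and barcode for called cells, with no normalization. Seurat is also named and none of its output was used. Transgenes stayed out of all totals. Barcodes with under 500 genes, 20% or more mitochondrial or 5% or more haemoglobin UMIs were left out, which kept 12850 of 14302 and 15507 of 18596 barcodes, with median depths of 18750 and 14016 UMIs. Before that the libraries held 282961884 and 295366782 UMIs.

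A cell entered a class when it had the set number and summed level of that class's markers and did not meet the gates of another compartment. Single markers of other compartments could be present. Macrophages needed 50 marker UMIs per 10,000. No doublet caller was run. Barcodes that met the gates of several compartments (3.25% and 2.82%) were left out as mixed, and 8.27% and 27.9% met none. Thinning to 2000 UMIs left out 218 and 348 glioma cells, and at most 8 cells of any other class.

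Counts were summed per tumour and class and tested in R 4.3.3 with edgeR 4.0.16 (glmQLFit and glmQLFTest after filterByExpr and TMM), class plus tumour as a block, each class against the mean of the others on the log2 scale. The 7-class fit had 14 sums, a common dispersion of 0.0499 and 6 residual degrees of freedom, and the 9-class fit 18, 0.0516 and 8. All classes of a tumour come from the same animal, so the number pairs them. Deviations of classes of the same tumour correlated between 0.0827 and 0.669, over 0.1 in 20 of 21 pairs of classes. The tumours come from 2 animals, and p-values measure the deviations between them, pooled over classes. A fold is printed only for genes with at least 3 UMIs in every class of the fit, since others rest on the prior count. The ranges with 1 tumour alone in the closing section are an exception. The fit was tested on simulated data with 200 changed genes.

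Alternatives were DESeq2 1.42.0, its size factors, no filter, no block, stricter gates, a 10% mitochondrial limit, removal of the 10% of cells with most UMIs, and each tumour alone. The fit with at least 5 cells and levels without the top cell were chosen after seeing the data. Positions come from an annotation of GRCm38, matched for 37 of 44 entries, and promoters from RefSeq GRCm38.p6. The interferon and NF-kappaB motifs were shortened by 1 letter after a first search, which had matched fewer windows. The members and all lists were chosen with earlier results of these data known. Members with at least 20 UMIs in a class of a tumour were named, grouped by receptor. 1 receptor is not reported here.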

Additional observations from a re-analysis of the deposited data

Results flagged for a closer look

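Chemokine UMIs were also present in barcodes and genes that no comparison used, above the limit that a count of 0 allows. Barcodes without a class held the members at a summed level of 37.7 per 10,000 in tumour 1 and 13.3 in tumour 2, and barcodes with markers of several compartments at 25.4 and 29.1. Cxcl10 led among the former in both tumours. Pf4, the platelet factor whose symbol the member rule does not match, was at 0.0773 (0.0311 to 0.159) in macrophages of tumour 1 and 0.514 (0.448 to 0.588) in those of tumour 2.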

How the results depend on the processing

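Of 115 calls of single members, 1037 of 1119 values under an alternative kept direction and call, 72 kept the direction only and 10 reversed. The number of members higher in dendritic cells was 8, and 5 with stricter gates; that of endothelial cells was 8, and 4 without the 10% of cells with most UMIs. In oligodendrocytes 1 was higher, and 0 with no filter on low counts, with stricter gates and without those cells, and 2 in the fit with at least 5 cells. Without the replicate block the oligodendrocyte count was 0 and the count for microglia against monocytes 3 in place of 9, and 25 single calls were lost. T cells against NK cells gave 1 call, 3 with no filter and 2 with stricter gates. In glioma cells 1 member was higher in tumour 1, 3 at a 1.5-fold rule and 0 with stricter gates, and in microglia 3, and 8 at 1.5-fold. DESeq2 called 16 members lower in glioma cells in place of 8, 12 in place of 7 in T cells, 4 in place of 1 in microglia, and 2 in place of 5 higher in microglia than in monocytes. With each tumour alone, which allows no test, between 5 and 8 of the dendritic calls kept their sign. The log2 difference with tumour 1 alone and with tumour 2 alone ran from -0.63 to 5.76 for Cxcl3 in macrophages, -0.63 to 5.02 for Cxcl3, -1.77 to 3.78 for Cxcl2 and -3.54 to 4.07 for Ccl9 in dendritic cells, -0.9 to 4.99 for Ccl24 and -3.06 to 1.75 for Ccl17 in monocytes, and 2.51 to -4.07 for Ccl17 in microglia against monocytes. Those of Cxcl3, Ccl9, Ccl17 and Ccl24 rest on the prior count and give no size, since some classes had under 3 UMIs. Stricter gates reversed Cxcl2 in dendritic cells (-0.94), and leaving out the cells with most UMIs reversed Cxcl9 (-0.93) and Ccl2 (-1.03) in endothelial cells. The cause was not tested. Tests of mural cells and neutrophils, and of endothelial against mural cells, were not run, since tumour 1 had 3 and 0 such cells. The highest class was the same in both tumours for 18 members, and for 18 to 23 under the alternatives.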

Other observations

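Ccl11, an eosinophil attractant, had 148 and 80 UMIs in kept cells but at most 4 and 18 in any class, the 18 in the mural cells of tumour 2. Within T cells, a Ccl4 UMI was present in 61.3% and 30.3% of the cells with Xcl1 and in 67.6% and 18.8% of those without, with median depths of 13154 and 16349 UMIs against 9103.5 and 7395. In dendritic cells, a Ccl22 UMI was present in 18.2% and 60.9% of the cells with Ccl17 and in 26.7% and 27.8% of those without, in 26 and 59 cells.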
